A study of Mus musculus with 16 samples.

Results

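*Spry1*, *Spry2*, *Spry4*, *Spred1*, and *Spred2* encode Sprouty and Spred proteins, which act as feedback inhibitors of the RAS-ERK pathway. These 5 genes were chosen by name from the 51912 genes in the count table of bulk mRNA-Seq libraries from mouse lung group 2 innate lymphoid cells (ILC2s). The ILC2s came from WT mice and from Pac1-/- mice on a C57BL/6J background, 6 to 8 weeks old. PAC1 is a MAP kinase phosphatase encoded by *Dusp2*. The cells of each genotype were kept for 4 hours in IL-7 alone, in IL-7 and IL-33, or in these cytokines together with either the neuropeptide CGRP or the neuropeptide NMU, so that all groups shared IL-7 and those called CGRP and NMU here also received IL-33. IL-7 and IL-33 were given at 100 ng/mL, and CGRP and NMU at 500 ng/mL. Each of the 8 combinations had 2 libraries of about 500 sorted ILC2s, 16 libraries in all. The study's general culture method expands sorted ILC2s for 1 to 2 weeks with IL-2 and IL-7 before stimulation, and its description of the mRNA-Seq does not say whether these cells were expanded or whether the libraries of a group came from different mice. *P* values therefore measure the spread between libraries, which may be technical.

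When a growth factor or cytokine receptor is engaged, the adaptor GRB2 and the exchange factor SOS load RAS with GTP, and RAF, MEK, and ERK are activated in turn. ERK activity induces the Sprouty genes in many cell types, and Sprouty proteins then interfere with the pathway at the level of GRB2 or RAF. Spred proteins bring neurofibromin, a GTPase-activating protein, to the membrane, where it switches RAS off. The CGRP receptor raises cAMP, whereas the NMU receptor of ILC2s couples to calcium and ERK signaling, and IL-33 signals through a receptor of the IL-1 family. In ILC2s, CGRP is known as a negative and NMU as a positive regulator.

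The total count per library was 6764992 to 15963357, and levels are given as CPM, each gene's count relative to the library total after scaling by TMM factors. At these depths 3 counts, taken as the floor of detection, were worth 0.188 to 0.443 CPM. The Pearson correlation of log2 CPM between the libraries of a group was 0.782 to 0.893 and was lowest in the CGRP groups. *Dusp2* had 0 counts in 8 of 8 Pac1-/- libraries but also in 6 of 8 WT libraries, so it is a weak check of the genotype labels at this depth. The summed level of ILC2 markers was 5608 to 7522 CPM in every library. Of these markers, *Il17rb* was at 0 in 3 libraries and had a median of 12.1 CPM. The sum includes *Areg*, which itself moved with treatment, at a mean of 490 CPM with CGRP and 120 CPM with IL-33. Among markers of other cells, *Cpa3*, a mast cell protease, was at 77.8 to 173 CPM with CGRP and 26.5 to 72.9 CPM in the other treatments, whereas *Mcpt4* and *Mcpt8* were each at 0 in 15 of 16 libraries. The 3 B cell markers summed to 106 and 117 CPM in the Pac1-/- CGRP libraries, to 0.627 and 16.3 CPM in the WT CGRP libraries, and to at most 7.25 CPM in the other libraries. T cell markers summed to 239 to 340 CPM with IL-7 and 34.2 to 165 CPM in the other libraries. These were mainly *Cd3g* and *Cd3d*, with medians of 108 and 12.5 CPM. *Cd3e* had a median of 0.983 CPM, *Cd4* was at 0 in 15 of 16 libraries, and *Cd8a* was at 0 in all 16. Epithelial markers, mainly *Sftpc*, *Scgb1a1*, and *Epcam*, summed to 295 and 174 CPM in the WT NMU libraries, 34.9 and 54.0 CPM in the Pac1-/- NMU libraries, 10.96 to 25.3 CPM with CGRP, 41.5 to 87.7 CPM with IL-33, and 14.5 to 40.4 CPM with IL-7, and *Sftpb* was at 0 in all 16. Myeloid markers, mainly *Lyz2*, summed to 118 and 40.3 CPM in the WT NMU libraries and to at most 16.4 CPM in the others, and *S100a8* was at 0 in all 16. The other lists (NK cell or ILC1, ILC3, endothelial, and fibroblast markers) summed to at most 93.6 CPM in any library. In bulk libraries, fewer cells of a type and less RNA per cell cannot be told apart.

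All 5 genes are protein coding. In GRCm38, *Spry1* (ENSMUSG00000037211) lies at chr3:37639947-37644598 on the plus strand and *Spry2* (ENSMUSG00000022114) at chr14:105891947-105896819 on the minus strand. *Spred1* (ENSMUSG00000027351) lies at chr2:117121374-117182279 and *Spred2* (ENSMUSG00000045671) at chr11:19924375-20024026, both on the plus strand. An exon of *Spry1* overlaps *Gm42922*, an uncharacterized transcript on the opposite strand, which had 2 counts in all libraries together. At an identity of at least 95%, *Spred1* shares a stretch of 169 bases with *Vps35*, and *Spred2* shares 179 bases with *Gm14612*. Over all libraries *Vps35* had 26098 counts, against 1991 for *Spred1*, and *Gm14612* had 0 counts. Some reads may be uncertain between those genes. No such stretch was found for *Spry2* or *Spry4*.

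The 250 bases before the RefSeq transcription start were available for 4 of the members and are shown for the pair that rose with CGRP, *Spry1* and *Spry2*, and for *Spred2*, which did not. They are written 5′ to 3′ on the strand of the gene (GRCm38.p6), with matches to the motifs below in capitals. The windows are chr3:37639697-37639946 for *Spry1*, chr14:105896820-105897069 for *Spry2*, and chr11:19924192-19924441 for *Spred2*.
Spry1: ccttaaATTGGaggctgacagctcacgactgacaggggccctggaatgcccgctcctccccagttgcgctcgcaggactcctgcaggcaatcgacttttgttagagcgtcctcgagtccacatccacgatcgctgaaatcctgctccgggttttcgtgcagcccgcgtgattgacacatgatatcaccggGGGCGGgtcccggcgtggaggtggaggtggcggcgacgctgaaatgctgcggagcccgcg
Spry2: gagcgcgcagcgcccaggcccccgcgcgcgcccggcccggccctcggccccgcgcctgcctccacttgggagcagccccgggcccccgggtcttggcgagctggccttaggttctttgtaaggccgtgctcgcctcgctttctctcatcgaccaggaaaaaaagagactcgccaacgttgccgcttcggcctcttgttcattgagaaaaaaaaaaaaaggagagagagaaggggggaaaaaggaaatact
Spred2: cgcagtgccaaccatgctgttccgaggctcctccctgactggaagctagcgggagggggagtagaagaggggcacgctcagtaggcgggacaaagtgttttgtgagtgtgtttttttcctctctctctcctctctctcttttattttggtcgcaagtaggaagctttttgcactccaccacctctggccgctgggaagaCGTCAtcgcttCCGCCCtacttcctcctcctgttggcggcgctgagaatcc
The motifs searched on both strands were the full cAMP response element TGACGTCA, its shorter form TGACG, the ETS core CCGGAA, the AP-1 site TGANTCA, the GC box GGGCGG, and the CCAAT box CCAAT, of which the full cAMP response element contains the shorter form. Among 32851 RefSeq promoter windows of this length, 1.55% held the full element, 17.8% the shorter form, 12.03% the ETS core, 6.75% the AP-1 site, 32.7% the GC box, and 33.8% the CCAAT box. The *Spry1* window held a GC box starting at position -60 and a CCAAT box on the opposite strand at -244. The *Spry2* window held none of the 6 motifs. The *Spred2* window held the shorter form of the cAMP response element at -51 and a GC box at -40, both on the opposite strand. The RefSeq start of *Spred2* lies downstream of the gene start given above, 19924375, so both matches lie inside the gene as placed there. The *Spred1* window, which is not shown, held 2 GC boxes. These matches are a description of the letters in these windows.

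*Spry2* was by far the most abundant member. Its 4 libraries with IL-7 were at 91.2 and 114 CPM in WT and at 120.9 and 108 CPM in Pac1-/- ILC2s. With IL-33 they were at 93.4 and 110.0 CPM in WT and at 127 and 123 CPM in Pac1-/- ILC2s, overlapping the IL-7 libraries. With CGRP they reached 460.4 and 449.7 CPM in WT and 566 and 780.1 CPM in Pac1-/- ILC2s, above each of the other 12 libraries. With NMU they were at 262 and 213 CPM in WT and at 256 and 211 CPM in Pac1-/- ILC2s, above every IL-7 and IL-33 library and below every CGRP library. The order of the mean level was therefore CGRP, NMU, IL-33, and IL-7, at 564 ± 153, 236 ± 27.2, 113 ± 15.3, and 109 ± 12.7 CPM (SD, n = 4 each), and the IL-33 and IL-7 levels did not differ beyond their spread.

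*Spry1* was low without CGRP. With IL-7 it was at 2.69 and 1.20 CPM in WT and at 0.446 and 1.33 CPM in Pac1-/- ILC2s, and with IL-33 at 0.882 and 3.65 CPM in WT and at 1.20 and 1.49 CPM in Pac1-/- ILC2s. With CGRP it was at 14.5 and 41.8 CPM in WT and at 43.9 and 46.1 CPM in Pac1-/- ILC2s, from 162 to 441 counts, and all 4 libraries lay above the other 12. With NMU it was at 4.42 and 0.227 CPM in WT, the latter from 2 counts, and at 8.83 and 2.52 CPM in Pac1-/- ILC2s. The NMU libraries thus overlapped those with IL-7 and with IL-33.

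**Figure D1:**
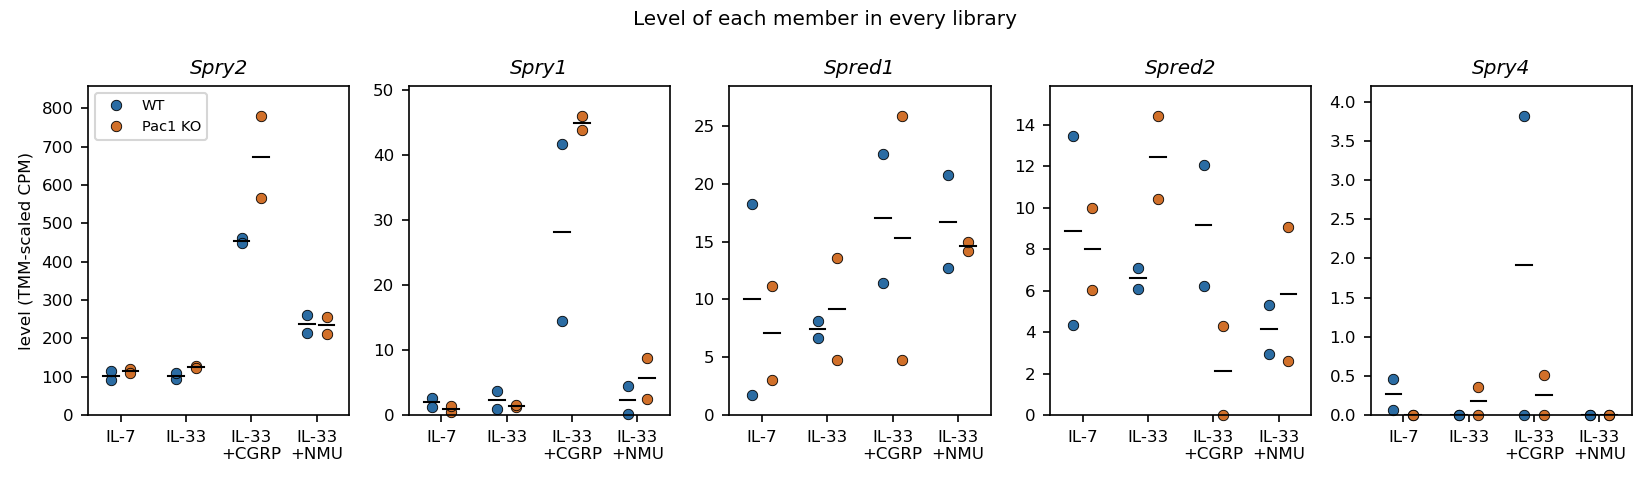
Level of each Sprouty and Spred gene in TMM-scaled CPM (vertical axes, linear and on a scale of their own for each gene) in the 4 treatments; each point is a library, in blue for WT and orange for Pac1-/- ILC2s, and bars are means of 2 libraries. The 4 CGRP libraries lie above the other 12 for *Spry2* and *Spry1*, the treatments overlap for *Spred1* and *Spred2*, and *Spry4* is at 0 in 11 of 16 libraries.

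The Spred genes were low and variable. *Spred1*, a membrane recruiter of neurofibromin, ranged from 1.75 to 18.3 CPM with IL-7, 4.73 to 13.6 CPM with IL-33, 4.78 to 25.9 CPM with CGRP, and 12.7 to 20.8 CPM with NMU. *Spred2*, its close relative, ranged from 4.34 to 13.4 CPM with IL-7, 6.10 to 14.4 CPM with IL-33, 2.63 to 9.08 CPM with NMU, and 0 to 12.1 CPM with CGRP. The 0 was in replicate 2 of Pac1-/- with CGRP, the only library without a *Spred2* count. For both genes the ranges of all 4 treatments overlapped each other.

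*Spry4*, a Sprouty gene that ERK signaling induces in many cells, was hardly detected. It lies at chr18:38586247-38601415 on the minus strand of GRCm38 (ENSMUSG00000024427). It had 0 counts in 11 of 16 libraries and 51 counts in all, of which 35 were in replicate 2 of WT with CGRP, at 3.82 CPM. It had 1 and 5 counts in the WT IL-7 libraries, 6 counts in a Pac1-/- IL-33 library, and 4 counts in a Pac1-/- CGRP library. It did not pass the filter on low counts in any comparison and was not tested, so that 4 of the 5 members were tested in each. *Spred3* had at most 2 counts in any library, and *Spry3* was not analysed here.

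Levels of different genes were compared per kilobase of exon. On this scale *Spry2* was at 52.0 ± 6.08 CPM per kilobase with IL-7 and at 270.2 ± 73.4 CPM per kilobase with CGRP (SD, n = 4), and it made up 91.3% to 97.0% of the summed level of the 5 members in every library. The share of *Spry1* was 0.933% ± 0.716 with IL-7, 1.07% ± 0.769 with IL-33, 4.40% ± 1.73 with CGRP, and 1.11% ± 0.956 with NMU (SD, n = 4). With CGRP it was the second most abundant member at 12.6 ± 5.10 CPM per kilobase, against 2.38 ± 1.44 for *Spred1* and 1.22 ± 1.09 for *Spred2*. With IL-33 the 3 were at 0.621 ± 0.432, 1.22 ± 0.561, and 2.06 ± 0.816 CPM per kilobase.

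Adding CGRP to IL-33 raised both detected Sprouty genes, whereas neither Spred gene passed the test. A gene is called here when its fold change exceeded 1.5 and its Benjamini-Hochberg adjusted *P* value over all genes tested, from edgeR's quasi-likelihood test with the genotypes together and genotype as a covariate, was below 0.05. *Spry2* rose 5.08-fold (log2 fold change 2.34, SE 0.188, adjusted *P* = 0.000696, edgeR), which was rank 11 by *P* value among 13160 genes. *Spry1* rose 20.9-fold (log2 fold change 4.39, SE 0.748, adjusted *P* = 0.0274, edgeR). *Spred1* had a log2 fold change of 1.01 (SE 0.739, adjusted *P* = 0.602) and *Spred2* one of -0.98 (SE 1.39, adjusted *P* = 0.838) in the same edgeR fit. Of the 4 tested members, 2 were thus called, both higher, beside 230 of 13160 genes in all, or 1.75%, of which 202 were higher. The median log2 fold change was 1.68 over the 4 tested members and -0.09 over all genes. The call of *Spry1* rested on replicate 1 of Pac1-/- with IL-33, without which its log2 fold change was 4.12 and its edgeR adjusted *P* value 0.0591. For *Spry2* the adjusted *P* value was 0.000344 to 0.000721 with any library left out.

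Responses within each genotype came from 1 fit of the 8 libraries, and the share of all genes called there was not computed. The rise of *Spry2* with CGRP passed the cutoff in each genotype. It was 4.52-fold in WT ILC2s (log2 fold change 2.18, SE 0.267, edgeR adjusted *P* = 0.0316) and 5.70-fold in Pac1-/- ILC2s (log2 fold change 2.51, SE 0.270, edgeR adjusted *P* = 0.0113). *Spry1* had log2 fold changes of 3.64 in WT (SE 0.993, edgeR adjusted *P* = 0.313) and 5.14 in Pac1-/- ILC2s (SE 1.06, edgeR adjusted *P* = 0.0988), with no call in either. Its CGRP and IL-33 libraries did not overlap in either genotype, and the share of all genes separated in this way was not computed. The interaction of genotype with CGRP, which tests whether the response differs between genotypes, was 0.33 for *Spry2* (SE 0.362), 1.49 for *Spry1* (SE 1.28), -0.41 for *Spred1* (SE 1.55), and -2.95 for *Spred2* (SE 2.44) on the log2 scale. No member was called (edgeR adjusted *P* = 0.946 to 0.9999), none had an unadjusted *P* value below 0.05, and none was called by DESeq2. Of all 13160 genes, 0 (0%) were called for this interaction by edgeR, with 719 at an unadjusted *P* value below 0.05, and 113 by DESeq2. Leaving out 1 library gave 0 to 56 calls over all genes, with 56 without replicate 2 of WT with CGRP, 37 without replicate 1 of Pac1-/- with CGRP, and 0 members in each case. *Cpa3*, the B cell markers, and the epithelial markers also moved with CGRP, and their part in the response of *Spry2* and *Spry1* was not tested. In WT, the B cell markers summed to 0.627 and 16.3 CPM with CGRP and to 0 and 0 CPM with IL-33. In Pac1-/- ILC2s they summed to 106 and 117 CPM with CGRP and to 7.25 and 1.49 CPM with IL-33. *Cpa3* in WT was at 152 and 173 CPM with CGRP and 69.1 and 72.9 CPM with IL-33.

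With NMU, the level of *Spry2* lay between those with IL-33 and with CGRP, and its difference from IL-33 did not pass the test. *Spry2* was 2.14-fold higher with NMU than with IL-33 (log2 fold change 1.10, SE 0.224, edgeR adjusted *P* = 0.191), rank 32 of 12567 genes, in 4 of 4 libraries without overlap. How many of all genes were separated in this way was not counted. *Spry1* had a log2 fold change of 1.11 (SE 1.25), *Spred1* of 0.95 (SE 0.537), and *Spred2* of -0.86 (SE 0.667), and their adjusted *P* values were 0.751 to 0.946 in edgeR. None of the 4 tested members was called in this edgeR fit, in which *Spry2* was the 1 member with an unadjusted *P* value below 0.05. *Spry2* was called by DESeq2 (adjusted *P* = 0.000612) and by edgeR with all libraries in 1 fit (adjusted *P* = 0.0271). All-gene calls by edgeR on the NMU and IL-33 libraries alone were also few, 13 of 12567 or 0.103%. In WT and Pac1-/- ILC2s separately, the log2 fold change of *Spry2* with NMU was 1.24 (SE 0.317) and 0.95 (SE 0.314). The interaction of genotype with NMU was -0.29 for *Spry2* (SE 0.441), 2.05 for *Spry1* (SE 2.37), -0.49 for *Spred1* (SE 1.10), and -0.39 for *Spred2* (SE 1.38), beside a median of -0.19 over all genes. It was called for 0 members and 0 of 12567 genes (0%) by edgeR, with 0 members and 801 genes at an unadjusted *P* value below 0.05, and for 0 members and 37 genes by DESeq2. With 1 library left out it was called for 0 to 21 genes by edgeR, the most without replicate 2 of Pac1-/- with NMU, and for 0 members. The part of the epithelial and myeloid markers, highest in the WT NMU libraries, in these NMU values was not tested.

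In the direct comparison of the neuropeptides, *Spry2* was the 1 member called, though not with the replicate number as a block (edgeR adjusted *P* = 0.0578). It was 2.38-fold higher with CGRP than with NMU (log2 fold change 1.25, SE 0.217, edgeR adjusted *P* = 0.0173). This call was lost without replicate 2 of Pac1-/- with NMU (log2 fold change 1.10, edgeR adjusted *P* = 0.0601). *Spry1* was 9.78-fold higher but was not called (log2 fold change 3.29, SE 0.887, edgeR adjusted *P* = 0.0847). Its CGRP and NMU libraries did not overlap, a separation whose share over all genes was not computed. *Spry1* was called by DESeq2 (adjusted *P* = 0.000828) and by edgeR without the filter on low counts (adjusted *P* = 0.000590). *Spred1* and *Spred2* had log2 fold changes of 0.068 (SE 0.628) and -0.12 (SE 1.43). That is 1 of the 4 tested members, beside 495 of 12834 genes or 3.86%, 310 of them higher with CGRP and 185 lower.

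No member was called between IL-33 and IL-7. The log2 fold change of IL-33 against IL-7 was 0.057 for *Spry2* (SE 0.191), 0.40 for *Spry1* (SE 1.18), -0.020 for *Spred1* (SE 0.869), and 0.11 for *Spred2* (SE 0.654). None was called by DESeq2 either or had an unadjusted *P* value below 0.05, and 6 of 12980 genes were called in all, or 0.0462%. The SE of *Spry2* was the smallest of the 4 by more than 3-fold, and for the other members a sizeable change in either direction could not be detected at this spread.

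**Figure D2:**
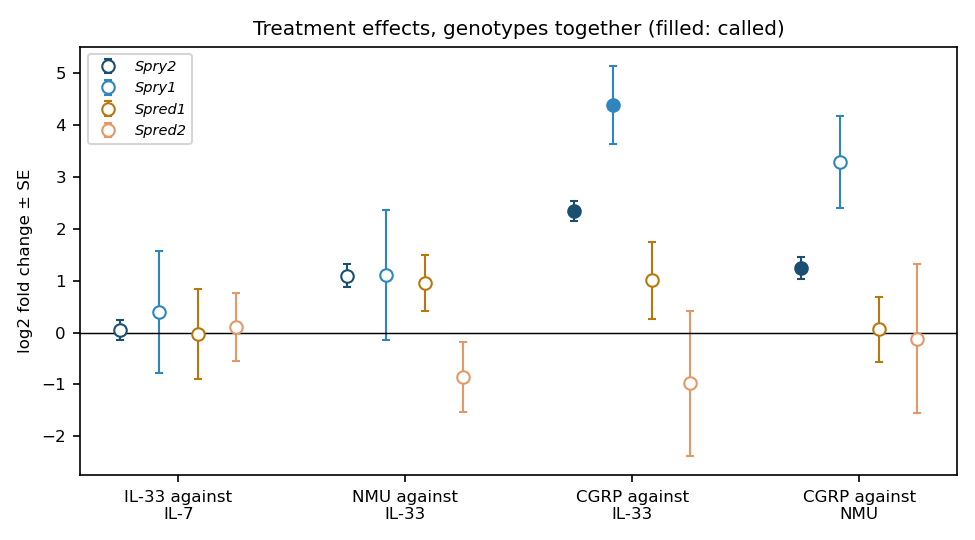
Log2 fold change with its SE (vertical axis) of the 4 tested members in the 4 treatment comparisons, with both genotypes in the fit; filled points passed the call. *Spry2* (2.34) and *Spry1* (4.39) are filled for CGRP against IL-33 and *Spry2* (1.25) for CGRP against NMU, and the points for IL-33 against IL-7 lie near 0.

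The other genes of the pathway were followed in 6 lists, which were chosen with earlier results of these data known. Their counts of calls and medians are therefore descriptions, also where the value over all genes stands beside them. The core of the cascade (RAS, RAF, MEK, and ERK genes with the scaffolds *Ksr1* and *Shoc2*) had 0 of 12 tested genes called for CGRP against IL-33 and a median log2 fold change of -0.12. Adaptors, exchange factors, and GTPase-activating proteins had 0 of 15 called and a median of 0.19, led by *Rasa1* at 0.66 and *Gab2* at -4.75, the latter at 4.499 ± 5.43 CPM with IL-33. Direct partners of Sprouty and Spred proteins, such as *Nf1*, *Cbl*, and *Grb2*, had 0 of 7 called and a median of 0.14, led by *Mknk1* (1.37, SE 1.37) and *Siah2* (0.44, SE 0.654). No gene of these 3 lists was called, beside 1.75% of all genes tested, so 0 calls in lists this short is near that share. *Grb2* stands in both of the last lists.

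Feedback inhibitors outside the family, transcripts that ERK is known to induce, and transcripts of the cAMP pathway had higher medians. Of 8 tested feedback inhibitors, 1 rose with CGRP, *Dusp1*, a nuclear MAP kinase phosphatase, from 30.6 ± 6.64 to 123 ± 22.1 CPM (SD, n = 4; log2 fold change 2.05, SE 0.258, edgeR adjusted *P* = 0.00764), and the list's median was 1.12. Of 12 ERK-responsive transcripts, 0 were called and 10 were higher, with a median log2 fold change of 1.35. Those with the smallest *P* values were *Dusp5*, which encodes a nuclear ERK phosphatase (1.64, SE 0.357, edgeR adjusted *P* = 0.063), and *Myc* (1.36, SE 0.377, edgeR adjusted *P* = 0.137). The list of 12 transcripts of the cAMP and CREB pathway, called cAMP-responsive here, also holds the pathway components *Creb1* (log2 fold change 0.14) and *Crtc2* (-1.09). Of the 12, 5 were called higher and 0 lower, with a median of 1.12. Those called included the AP-1 gene *Fosb* (13.9 ± 3.79 to 181 ± 63.6 CPM, log2 fold change 3.69, SE 0.288, edgeR adjusted *P* = 0.000605), the orphan nuclear receptors *Nr4a3* (log2 fold change 3.06) and *Nr4a2* (3.27), and the phosphodiesterase *Pde4b* (1.45).

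With NMU against IL-33, 0 genes were called by edgeR in each of the 6 lists, beside 0.103% of all genes tested. ERK-responsive transcripts had 9 of 11 tested genes higher and a median log2 fold change of 1.10. In this list *Dusp6*, which encodes a cytoplasmic ERK phosphatase, was at 96.1 to 120 CPM with NMU and at 13.5 to 47.4 CPM with IL-33 (log2 fold change 2.07, SE 0.338, edgeR adjusted *P* = 0.0623). *Egr2*, an immediate early transcription factor, was at 7.08 to 11.9 CPM with NMU and at 0 to 0.441 CPM with IL-33 (edgeR adjusted *P* = 0.175). The feedback list had a median of 0.30, with *Errfi1*, an inhibitor of the EGF receptor, at 0.78 and *Dusp1* at -0.62. The medians were -0.07 for the core, -0.17 for adaptors, -0.34 for partners, and -0.07 for cAMP-responsive transcripts, beside -0.07 over all genes. The genes with the smallest *P* values in those lists were *Shoc2* (-0.71) and *Braf* (-0.70), *Gab2* (-4.0) and *Sos2* (-0.75), *Dyrk1a* (-0.45) and *Cbl* (-0.34), and *Nr4a1* (0.88) and *Nr4a3* (0.98), none with an adjusted *P* value below 0.05.

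Between CGRP and NMU, 2 MAP kinase phosphatase genes were called in the same direction as *Spry2*. *Dusp5* (log2 fold change 1.52, SE 0.207, edgeR adjusted *P* = 0.00661) and *Dusp1* (2.68, SE 0.267, edgeR adjusted *P* = 0.00199) were higher with CGRP, as *Spry2* was. *Dusp6* was at 12.6 to 79.5 CPM with CGRP, below all 4 NMU libraries, with a log2 fold change of -1.66 that was not called (SE 0.469, edgeR adjusted *P* = 0.0961). The second called gene of the ERK-responsive list, *Ccnd1*, which encodes cyclin D, was at 3.38 to 12.9 CPM with CGRP and had 1 count in the 4 NMU libraries together. In all, 2 of 12 ERK-responsive transcripts, 1 of 8 feedback inhibitors, and 5 of 12 cAMP-responsive transcripts were called higher and none lower. The share over all genes was 3.86%, which is no test of lists chosen with earlier results known. The medians of these lists were -0.23, 0.73, and 1.15 beside 0.03 over all genes. Those named by the smallest *P* values among the cAMP-responsive transcripts were *Fosb* (3.46), *Nr4a2* (3.18), *Nr4a3* (2.08), and *Sik1* (2.94). The core, the adaptors, and the partners had 0 of 12, 0 of 13, and 0 of 6 called by edgeR, with *Braf* (1.85) and *Shoc2* (0.87), *Sos2* (0.97) and *Rasa1* (0.70), and *Dyrk1a* (0.58) and *Grb2* (0.31) as the leading genes. The comparisons share libraries and are given side by side without a test of their likeness. For IL-33 against IL-7 and for every comparison of the genotypes, 0 genes of the 6 lists were called by edgeR.

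**Figure D3:**
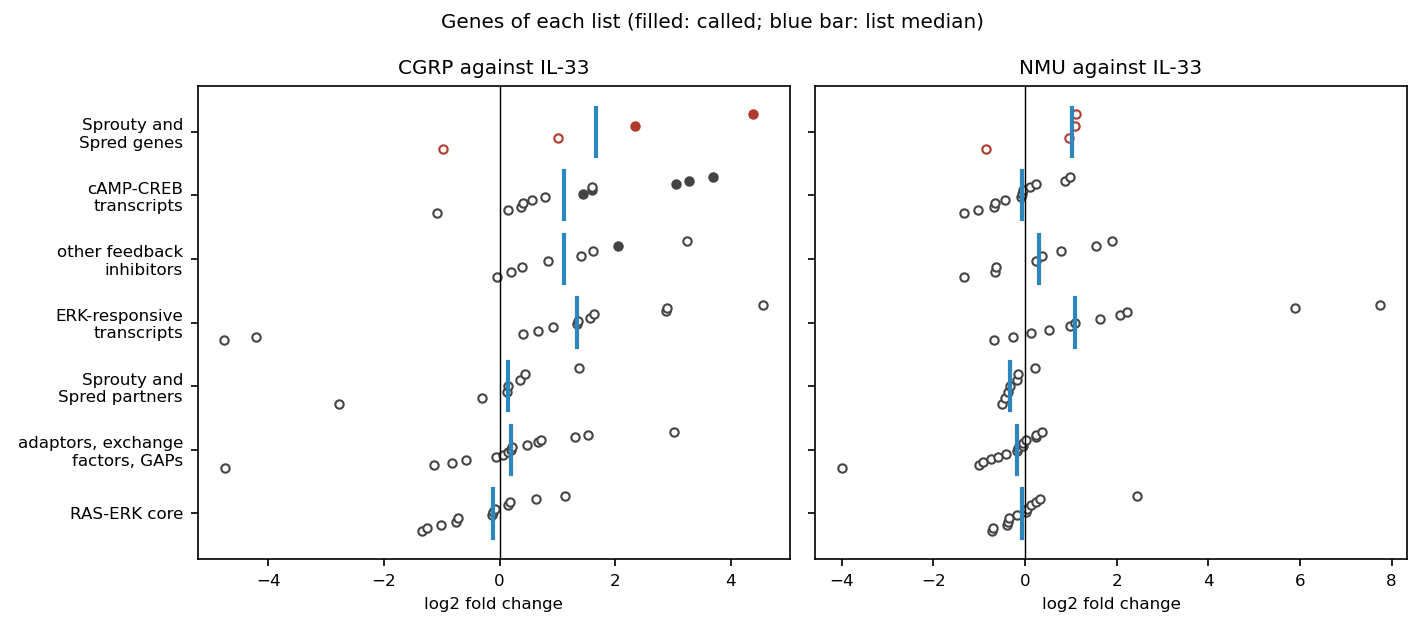
Log2 fold change (horizontal axis) of each tested gene of the 6 pathway lists and of the Sprouty and Spred genes (red), for CGRP against IL-33 and NMU against IL-33; filled points passed the call and blue bars are list medians. With CGRP the filled points are *Spry2*, *Spry1*, *Dusp1*, and 5 cAMP-responsive transcripts, and with NMU no point is filled.

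No Sprouty or Spred gene passed the test between Pac1-/- and WT ILC2s. The difference of Pac1-/- from WT in *Spry2* was 0.16 with IL-7 (SE 0.248), 0.25 with IL-33 (SE 0.376), 0.58 with CGRP (SE 0.217), and -0.030 with NMU (SE 0.314) on the log2 scale. With CGRP both Pac1-/- libraries lay above both WT libraries, a separation whose share over all genes was not computed. The difference had an unadjusted *P* of 0.04999 and an adjusted *P* of 0.664 in edgeR. The B cell markers were also higher in those Pac1-/- libraries. *Cpa3* was lower there, at 77.8 and 82.4 CPM against 152 and 173 CPM in WT. Epithelial markers (10.96 and 12.9 against 25.3 and 20.2 CPM) and T cell markers (83.5 and 95.6 against 118 and 151 CPM) were lower too. The part of these markers in the *Spry2* difference was not tested. For *Spry1* the differences were -1.10 (SE 1.46), -0.81 (SE 1.66), 0.69 (SE 0.669), and 1.26 (SE 1.60) in the same order, and the libraries of the genotypes overlapped in each treatment except CGRP.

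The Spred genes had no steadier difference. For *Spred1* the log2 differences of Pac1-/- from WT were -0.51 (SE 1.45) with IL-7, 0.27 (SE 1.003) with IL-33, -0.14 (SE 1.13) with CGRP, and -0.21 (SE 0.620) with NMU. For *Spred2* they were -0.15 (SE 1.05), 0.87 (SE 0.884), -2.08 (SE 2.33), and 0.50 (SE 1.15). The value of *Spred2* with CGRP depended on single libraries. It was -1.09 without replicate 2 of Pac1-/-, the library at 0, -9.43 without replicate 1 of Pac1-/-, and -1.52 and -2.49 without replicates 1 and 2 of WT, and its interaction of genotype with CGRP was -10.6 to -1.92 with 1 library left out. Across the 4 treatments together the difference was 0.24 for *Spry2* (SE 0.129, edgeR adjusted *P* = 0.848), 0.025 for *Spry1* (SE 0.7097), -0.15 for *Spred1* (SE 0.517), and -0.17 for *Spred2* (SE 0.755).

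By edgeR and by DESeq2, 0 members were called between the genotypes in any of these 5 comparisons (DESeq2 gave no adjusted *P* value for *Spry1* with IL-7), and *Spry2* with CGRP was the 1 value with an unadjusted edgeR *P* below 0.05. Over all genes edgeR called 1 of 10912 with IL-7 (0.00916%), 1 of 11448 with IL-33 (0.00874%), 0 of 10912 with CGRP (0%), 3 of 10621 with NMU (0.0282%), and 12 of 14979 across the treatments (0.0801%). For CGRP, 822 genes had an unadjusted *P* below 0.05, and DESeq2 called 203. With 1 library left out the edgeR counts over all genes were 0 with IL-7, 0 to 103 with IL-33 (103 without replicate 1 of WT), 0 with CGRP, 1 to 77 with NMU (77 without replicate 2 of Pac1-/-), and 10 to 16 across the treatments, with 0 members called throughout.

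**Figure D4:**
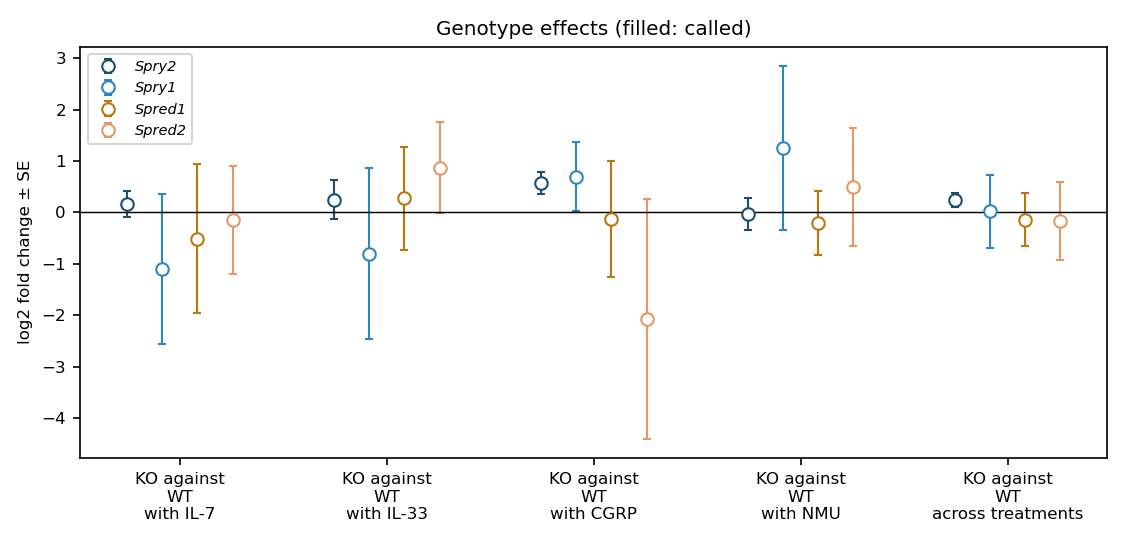
Log2 fold change of Pac1-/- against WT with its SE (vertical axis) for the 4 tested members within each treatment and across all treatments; no point passed the call, so all are open. *Spry2* has the narrowest bars, from an SE of 0.129 across treatments to 0.376 with IL-33, and *Spred2* with CGRP the widest, at 2.33.

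Over the 16 libraries, the log2 levels of *Spry1* and *Spry2* had a Pearson correlation of 0.83, and those of *Spry2* and *Spred2* one of -0.59. These points share the treatments, and the values are descriptions. Among 4876 other genes that averaged 20 CPM or more, the closest to *Spry2* were *Areg* (0.97), *D16Ertd472e* (0.91), *Cd69* (0.91), *Rpl6l* (0.90), and *Zfp36* (0.89). *Areg*, which encodes the EGF receptor ligand amphiregulin, was at 113 ± 22.3 CPM with IL-7, 120.2 ± 17.8 CPM with IL-33, 489.8 ± 23.8 CPM with CGRP, and 196 ± 34.2 CPM with NMU (SD, n = 4), the same order as *Spry2*. *Cd69* encodes an early activation receptor and *Zfp36* an RNA-binding protein that promotes mRNA decay. The closest to *Spry1* were *Rpl10a* (0.94), *Nfkbiz* (0.91), *Tob2* (0.90), *2310001H17Rik* (0.90), and *Fosl2* (0.88). For *Spred2* they were *Adam17* (0.95), *Lrrc42* (0.89), *Nsmce1* (0.89), *Gnb4* (0.88), and *Tmx2* (0.88). *Spred1* had the loosest neighbours, with *Ifnar2* at 0.72, *Swap70* at 0.69, *Zfp655* at 0.67, *Rbm26* at 0.66, and *Gxylt1* at 0.65.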

How the data were processed

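Bulk mRNA-Seq of 16 libraries was analysed. The authors amplified full-length cDNA from about 500 ILC2s per library, read both ends on a NovaSeq instrument, and placed the reads on mm10 by HISAT2. The authors deposited a table of whole-number counts for each Ensembl gene and library, not normalized. The counting tool, its annotation, and its use of strand are not given in the sources used here, so reads of overlapping genes are uncertain between them. All columns were mapped from the sample labels, and symbols and positions came from GENCODE M21 (51633 of 51912 genes had a symbol).

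Each comparison was fitted on its own libraries by edgeR 4.0.16 (R 4.3.3) with TMM scaling, filterByExpr by group, and quasi-likelihood testing, with *P* values adjusted over all genes tested. SEs are the log2 fold change over the square root of the F statistic. The cutoff followed the study, a fold change above 1.5 and an adjusted *P* value below 0.05. For correlations, 2 was added as a prior count before the log2 of CPM. Promoters came from RefSeq and near-identical stretches from BLAST 2.17.0 (at least 95% identity over at least 100 bases). Alternatives were RLE factors, DESeq2 1.42.0, unfiltered genes, a minimum of 10 counts per gene and library, no fold cutoff, the replicate number as a block, 1 fit of all libraries, each library left out, and, for correlations, a prior count of 0.5 and ranks. Called genes of a list were named up to 4 by smallest *P* value, otherwise 2, in the comparisons with CGRP or NMU. Some genes that this rule would name are not reported here. Members and lists were chosen with earlier results of these data known.

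The fit was tested on simulated data in which few genes were changed and the rest left unchanged. Changed genes that did not pass the filter were not counted, and the rates need not hold where more genes change. Modelled on CGRP against IL-33 (12085 genes, of which 64, 59, and 60 were changed 2-, 4-, and 8-fold), the fit found 1.56% of genes changed 2-fold, 15.3% at 4-fold, and 33.3% at 8-fold, with 0 of 30 calls unchanged. For Pac1-/- against WT with CGRP (9792 genes) it found 0%, 15.5%, and 30.6%, with 4 of 32 calls unchanged, and across treatments (13765 genes) 11.3%, 35.5%, and 48.3%, with 3 of 60. For the interaction with CGRP (12254 genes) it found 0%, 0%, and 11.3%, with 0 of 7 unchanged and a slope of fitted on simulated log2 fold changes of 1.25.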

Additional observations from a re-analysis of the deposited data

Results flagged for a closer look

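A library stood apart from the other 3 of its treatment (both genotypes together) in 4 of 19 sets of 4 examined, by the gap to its nearest neighbour against the whole range. The cutoff gives about 1 in 20 for normally distributed values from 1 population. Sets with counts at or near 0 are not of that kind, so 4 of 19 cannot be set against that rate. *Spry1* was low in replicate 1 of WT with CGRP, at 14.5 CPM against 41.8 CPM for the nearest library. Without this library the log2 fold change of *Spry1* with CGRP was 4.76 (edgeR adjusted *P* = 0.00612), against 4.39 with it. The other 3 sets were of *Spry4*, with 0.462 CPM in replicate 2 of WT with IL-7, 0.360 CPM in replicate 1 of Pac1-/- with IL-33, and 3.82 CPM in replicate 2 of WT with CGRP. These came from 5, 6, and 35 counts beside libraries at or near 0. None of the 8 interaction tests of the members was called.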

How the results depend on the processing

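The number of members called changed in 2 comparisons on settings other than leaving out a library. For NMU against IL-33 it went from 0 to 1 with DESeq2 and with all libraries in 1 fit (*Spry2*, edgeR adjusted *P* = 0.0271 in the latter). For CGRP against NMU it went from 1 to 2 with DESeq2 and without a filter (*Spry1*, adjusted *P* = 0.000828 and 0.000590 by the respective fit) and to 0 with the replicate block (*Spry2*, log2 fold change 1.25, edgeR adjusted *P* = 0.0578). Leaving out 1 library gave 1 to 2 members for CGRP against IL-33 and 0 to 1 for CGRP against NMU; a lone library left in a group is assumed to vary like the others. Over all settings the adjusted *P* value was 1.05e-30 to 0.00471 for *Spry2* and 8.88e-09 to 0.0591 for *Spry1* with CGRP against IL-33, 0.000612 to 0.716 for *Spry2* with NMU against IL-33, and 1.39e-06 to 0.0601 for *Spry2* and 0.000590 to 0.175 for *Spry1* with CGRP against NMU.

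Replicate numbers are shared by all groups. The deviations of same-numbered libraries correlated at -0.065 to 0.039 over 28 pairs of groups, with 0 over 0.1. Whether same-numbered libraries shared mice or a preparation is not stated in the sources used here and was not tested. With the replicate block, *Spred1* changed sign for IL-33 against IL-7 (0.41), CGRP against NMU (-0.16), and Pac1-/- against WT with IL-7 (0.040), as did *Spred2* for the last (0.024). It changed the call of no member in the other 10 comparisons. It gave 80 calls over all genes for CGRP against IL-33 and 208 for CGRP against NMU, and 0 for IL-33 against IL-7 and for the genotypes with IL-7.

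With 1 library left out, the following members changed sign in 1 or more of the fits, none of them called, over these ranges of log2 fold change. For IL-33 against IL-7 they were *Spry1* (-0.057 to 0.73), *Spred1* (-0.48 to 0.9985), and *Spred2* (-0.12 to 0.62). For CGRP against NMU they were *Spred1* (-0.57 to 0.35) and *Spred2* (-0.64 to 0.58). For Pac1-/- against WT they were *Spred1* (-1.68 to 2.01) and *Spred2* (-0.74 to 0.89) with IL-7, *Spry1* (-1.51 to 0.57) and *Spred1* (-0.73 to 0.86) with IL-33, *Spred1* (-1.82 to 0.62) with CGRP, and *Spry2* (-0.21 to 0.17), *Spred1* (-0.56 to 0.24), and *Spred2* (-0.63 to 1.13) with NMU. Across treatments they were *Spry1* (-0.30 to 0.36), *Spred1* (-0.41 to 0.26), and *Spred2* (-0.47 to 0.16). For the interactions they were *Spred1* with CGRP (-2.05 to 0.60) and *Spred1* (-1.08 to 0.53) and *Spred2* (-1.51 to 0.24) with NMU.

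DESeq2 and no filter called more genes in all than edgeR with its filter. The counts were 1083 and 639 for CGRP against IL-33, 1691 and 1102 for CGRP against NMU, 169 and 77 for NMU against IL-33, 423 and 201 for IL-33 against IL-7, 78 and 28, 65 and 18, 203 and 82, and 66 and 32 for the genotypes with IL-7, IL-33, CGRP, and NMU, 77 and 62 across treatments, and 113 and 44 and 37 and 20 for the interactions with CGRP and NMU. At least 10 counts in every library gave 465, 859, 27, and 10 for the 4 treatment comparisons in that order, and 1 fit gave 413, 820, and 28 for the first 3 and 16 for the genotypes with CGRP. That minimum gave 2, 6, and 1 for the genotypes with IL-7, IL-33, and NMU. With 1 library left out, edgeR called 133 to 243 genes for CGRP against IL-33, 252 to 429 for CGRP against NMU, 15 to 38 for NMU against IL-33, and 12 to 37 for IL-33 against IL-7. Of 5 genes closest by Pearson correlation, Spearman correlation kept 1 for *Spry1*, 2 for *Spry2*, 0 for *Spred1*, and 1 for *Spred2*. The causes of these shifts were not tested.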
